A study of Mus musculus with 32 samples.

Results

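Dendritic cells (DCs) take up, process, and present antigen to T cells. They share much of their surface with the macrophages (MΦs) beside which they lie in tissues, and some DCs, not all, carry CD11b. A gate on CD11b can therefore hold MΦs and part of the DCs. The 7 genes described here, Itgax, Zbtb46, Flt3, Cd209a, Clec9a, Batf3, and Irf4, are DC genes or are widely used as such, and were followed in the CD11b+ cells sorted from mouse islets. Members were the rows of the deposited table that carry these symbols, 7 of its 22850 genes, and each symbol stood on 1 row. All 7 were found. The rule used symbols alone, and the members were chosen with earlier results of these data known.

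In MΦ biology and DC biology the members have separate roles. Itgax encodes CD11c, the integrin chain that pairs with the β2 chain. Flt3 is the receptor for FLT3 ligand, the growth factor on which DC development depends. Cd209a and Clec9a encode C-type lectin receptors, the first of the DC-SIGN family and the second a receptor for exposed actin of dead cells on type 1 conventional DCs (cDC1s). Batf3 and Irf4 are transcription factors, Batf3 required for cDC1s and Irf4 prominent in type 2 conventional DCs (cDC2s), and Zbtb46 is a transcription factor of conventional DCs that endothelial cells (ECs) also express.

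All samples came from adult βVEGF-A; MIP-GFP mice (MIP-GFP; RIP-rtTA; TetO-VEGF-A) on a C57BL/6 background, and No Dox controls carry the same transgenes as treated mice. The rat insulin promoter drives rtTA, so that doxycycline (Dox) in the drinking water induces human VEGF-A in β cells, while the mouse insulin promoter labels the same cells with GFP. Groups were No Dox, 1 week of Dox (1wk Dox), and 1 week after its withdrawal (1wk WD). At these times there were 4, 2, and 4 samples of CD11b+ MΦs, 4, 1, and 5 of CD31+ ECs, and 4, 5, and 3 of GFP+ CD31- CD11b- β cells, each pooled from the islets of several mice. A score is the authors' TMM-normalized value, given as whole numbers from 1 up, and the depth behind it is unknown. Scores summed to between 23465985 and 53441769 per sample. Where p-values are given they measure the spread between these pooled samples. Both 1wk Dox MΦ samples, the single 1wk Dox EC sample, and replicate 3 of the 1wk WD β cells carry library identifiers of a second series of numbers, so in MΦs that series and the 1wk Dox condition cannot be told apart.

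The sorted populations were checked against their markers. The summed score of 10 MΦ markers in MΦs was 210890 to 346434 at No Dox, and was 422293 and 526465 in the 1wk Dox samples, with 377946 to 465238 after withdrawal, against 3829 to 6488 in ECs and 562 to 7609 in β cells. Itgam, which encodes the CD11b chain used for the sort, was at 20309 to 45478 in MΦs, 3 to 44 in ECs, and 10 to 294 in β cells. In MΦs its log2 difference from No Dox was -0.70 at 1wk Dox (SE 0.20, adjusted p = 0.0706 by limma) and -0.65 at 1wk WD (SE 0.17, adjusted p = 0.0782), neither past the threshold of 0.05. The acinar marker sum of MΦs ran from 22421 to 10152030 at No Dox, was 768 and 2811 in the 1wk Dox samples and 1293 to 181255 after withdrawal, and was highest in No Dox replicate 2. There it made up 19.0% of all scores.

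The positions of the members are on mm9. Itgax is at chr7:135273061-135294171 on the plus strand, Zbtb46 at chr2:181122467-181194131 on the minus strand, Flt3 at chr5:148142317-148212065 on the minus strand, Cd209a at chr8:3743395-3748984 on the minus strand, Clec9a at chr6:129358880-129374780 on the plus strand, Batf3 at chr1:192922293-192932822 on the plus strand, and Irf4 at chr13:30841095-30858796 on the plus strand. These were the same in GENCODE M1. Clec9a lies wholly inside Clec1a, a lectin gene of ECs on the opposite strand, without sharing an exon base with it, and 184 of its 3333 exon bases also belong to exons of Clec1b on the same strand, so reads from those bases cannot be assigned to 1 gene by strand or position. Whether counting used strand is not given in the sources used here. The paper describes libraries made from sheared, amplified cDNA with a DNA library kit, and no step that keeps strand. Without strand, reads of Clec1a that fall on Clec9a exons could not be told apart from those of Clec9a. Flt3 overlaps the gene Gm17398 by 936 bases on the opposite strand with no shared exon base.

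The windows upstream of 3 members are shown, because Flt3 and Irf4 were the members with lower scores at 1wk Dox at an adjusted p under 0.05 and Itgax was not. Each window holds the 250 bases before the RefSeq start (GRCm38.p6) on the gene's strand, matched base for base to mm9. Capitals mark a match to the AP-1 or TATA box letters.
Itgax chr7:135272814-135273063 plus strand: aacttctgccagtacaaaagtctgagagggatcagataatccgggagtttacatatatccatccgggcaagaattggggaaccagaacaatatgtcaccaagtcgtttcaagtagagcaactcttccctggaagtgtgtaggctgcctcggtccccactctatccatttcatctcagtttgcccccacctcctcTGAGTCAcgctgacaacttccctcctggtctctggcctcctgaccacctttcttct
Flt3 chr5:148212066-148212315 minus strand: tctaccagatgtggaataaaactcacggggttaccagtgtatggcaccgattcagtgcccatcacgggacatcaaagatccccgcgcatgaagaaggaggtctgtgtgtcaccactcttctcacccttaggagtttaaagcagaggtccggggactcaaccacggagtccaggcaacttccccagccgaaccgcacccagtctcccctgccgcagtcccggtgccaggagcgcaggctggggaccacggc
Irf4 chr13:30840852-30841101 plus strand: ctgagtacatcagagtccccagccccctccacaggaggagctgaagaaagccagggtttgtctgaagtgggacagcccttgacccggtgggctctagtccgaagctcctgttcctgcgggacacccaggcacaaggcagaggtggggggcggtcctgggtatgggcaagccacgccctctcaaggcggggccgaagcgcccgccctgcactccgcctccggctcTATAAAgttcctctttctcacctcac
The motifs were AP-1 (TGANTCA), a pair of interferon response half-sites (GAAA and GAAA with 2 bases between), an ETS-IRF composite (GGAA and GAAA with 2 bases between), a PU.1 site (GAGGAAGT, which shares GGAA with the composite), and a TATA box (TATAAA), on both strands. The Itgax window holds an AP-1 match that begins 56 bases before the start. A TATA box match in the Irf4 window begins 26 bases before the start. Among all 32851 windows of this length, 6.75% hold the AP-1 letters and 12.4% the TATA box letters. The half-site pair, the composite, and the PU.1 letters, in 2.98%, 2.30%, and 2.44% of windows, have no match in these 3, and the Flt3 window holds none of these 5 motifs. The ETS core GGAA, also searched and left in lower case, has 4 matches in the Itgax window and 2 each in those of Flt3 and Irf4, and 93.4% of all windows hold it.

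All 7 members were well above the lowest score in every MΦ sample. Divided by exon length, Cd209a had the highest level in MΦs at No Dox, 10236 ± 1089 per kb of exon (SD, n = 4), followed by Itgax at 3953 ± 551, Irf4 at 2239 ± 350, Batf3 at 1690 ± 287, Flt3 at 1027 ± 152, Zbtb46 at 477 ± 147, and Clec9a at 334 ± 63.6. The ranges of Irf4 and Batf3 overlapped, as did those of Zbtb46 and Clec9a, and the other neighbours in this order did not overlap.

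To ask whether these genes changed in CD11b+ cells while VEGF-A was induced, 1wk Dox was compared with No Dox. Flt3 and Irf4 were lower in both 1wk Dox samples than in any of the 4 No Dox samples, Clec9a and Zbtb46 were also lower without overlap, and Itgax, Cd209a, and Batf3 overlapped. No member passed the call (at least 2-fold, with a Benjamini-Hochberg adjusted p under 0.05 in limma), which 2.26% of the 15014 genes tested passed, and none was 2-fold different at an unadjusted p under 0.05, where 6.55% of genes were. At an adjusted p under 0.05 alone, a rule added after the data were seen, 2 of 7 members were lower, and 1.88% of all genes were. The groups of 4 members did not overlap, all 4 lower at 1wk Dox, where 14.7% of all genes were lower in this way. The median log2 difference was -0.54 over the 7 members and 0.03 over all genes tested. In these bulk samples fewer cells of a type and less RNA per cell cannot be told apart.

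Flt3, the growth factor receptor, had scores of 7609, 5881, 5443, and 6439 at No Dox, 2978 and 3479 at 1wk Dox, and 4667, 3819, 5035, and 4627 after withdrawal. The 3 groups did not overlap, with 1wk Dox lowest and 1wk WD between. The log2 difference of 1wk Dox from No Dox was -0.97 (SE 0.17, 1.95-fold lower, adjusted p = 0.0101 by limma). Without 1 No Dox sample, replicate 3, the difference was -1.04 with an adjusted p of 0.00696, and Flt3 then passed the call. Without 1wk Dox replicate 4 or 5 it was -0.85 and -1.08, with adjusted p of 0.329 and 0.0596.

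Irf4, the transcription factor prominent in cDC2s, had scores of 12667, 8791, 10895, and 9875 at No Dox and of 5491 and 6031 at 1wk Dox. At 1wk WD they were 7435, 8296, 10178, and 9819, inside the No Dox range for 2 samples and below it for 2. The 1wk Dox difference was -0.86 (SE 0.17, 1.82-fold lower, adjusted p = 0.0193 by limma). Without 1wk Dox replicate 4 or 5 the adjusted p was 0.398 or 0.102. Irf4 and Flt3 had an adjusted p under 0.05 in 12 and 13 of the 18 other settings, and a difference below 0 in each of them.

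**Figure D1:**
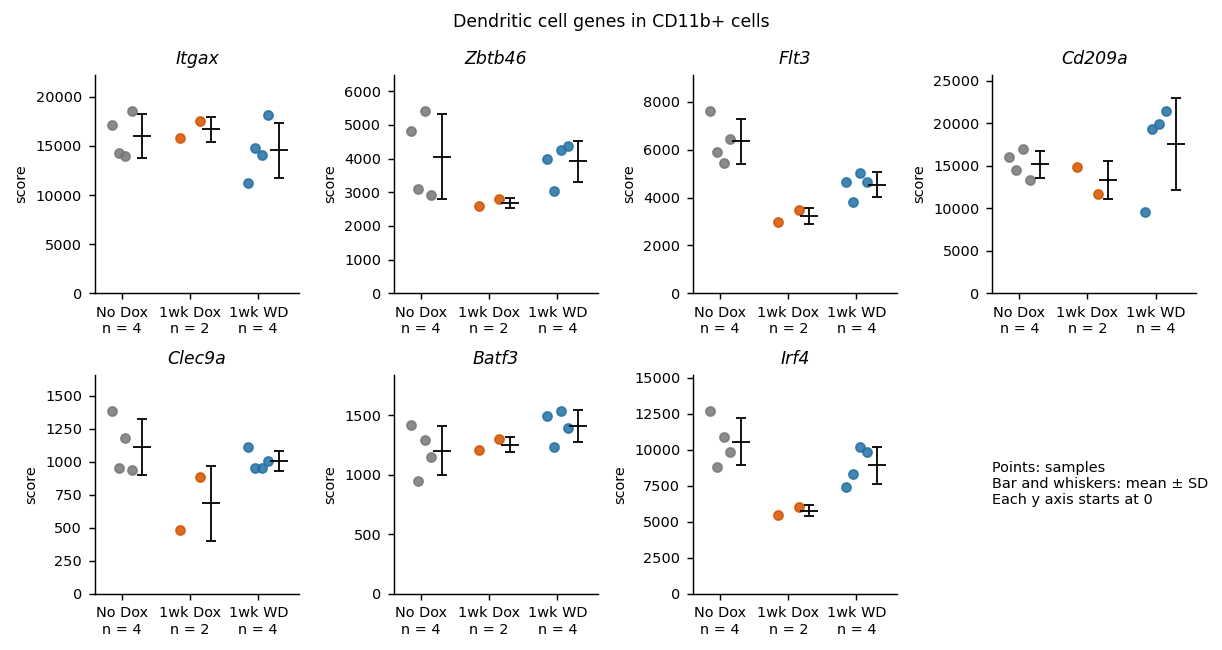
Scores of the 7 members (y axes, linear, from 0) in each CD11b+ sample, of which No Dox has 4, 1wk Dox 2, and 1wk WD 4, 1 point per sample, with the mean ± SD beside them. Flt3 sits at 2978 and 3479 at 1wk Dox, below the lowest No Dox score of 5443, while Itgax overlaps across all 3 times.

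Clec9a, the cDC1 lectin, was at 1381, 951, 1181, and 934 at No Dox, at 484 and 885 at 1wk Dox, and at 1111, 948, 955, and 1004 at 1wk WD. Of the 1wk Dox samples replicate 5 lay close under the No Dox range and replicate 4 far below it. The log2 difference was -0.74 (SE 0.25, adjusted p = 0.105), with -0.31 without replicate 4 and -1.18 without replicate 5 (adjusted p = 0.831 and 0.0778). Zbtb46 was at 4826, 3089, 5410, and 2907 at No Dox, at 2580 and 2794 at 1wk Dox, and at 4000, 3031, 4243, and 4386 at 1wk WD. The No Dox samples fall into a pair at 2907 and 3089 and a pair at 4826 and 5410, and the 1wk Dox difference was -0.54 (SE 0.25, adjusted p = 0.227).

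The remaining members had overlapping groups. Itgax, the CD11c chain, scored 17158, 14261, 14000, and 18560 before Dox, 15805 and 17575 during it, and 11258, 14775, 14119, and 18123 after withdrawal, with a 1wk Dox difference of 0.07 (SE 0.19, adjusted p = 0.876). Cd209a was at 16024, 14508, 16940, and 13291 at No Dox, at 14895 and 11707 at 1wk Dox, and at 9562, 19323, 19920, and 21452 at 1wk WD. Its widest spread was at 1wk WD, where replicate 1 lay below every other MΦ sample and the other 3 lay above every other MΦ sample. The 1wk Dox difference of Cd209a was -0.20 (SE 0.27, adjusted p = 0.733). Batf3 had scores of 1423, 947, 1294, and 1148, then of 1209 and 1297, and after withdrawal of 1496, 1233, 1534, and 1394, and its 1wk Dox difference was 0.07 (SE 0.19, adjusted p = 0.868).

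Other markers moved with the same groups, in a comparison where 1.61% of all genes were called higher and 0.653% lower. Macrophage markers were called higher at 1wk Dox for Fcgr1, C1qb, and C1qc, 3 of 10, proliferation markers for Mki67 and Ccnb1, 2 of 6, and the T cell marker Cd4, 1 of 7 tested, and the acinar markers Cel, Amy2a5, Cpa1, and Pnlip were called lower, 4 of 7. No gene of any kind was called when 1wk Dox replicate 4 was left out, and 49 were without replicate 5. Of 8 endothelial markers none was called and 7 had higher mean log2 scores, their sum being 1288 to 1822 at No Dox, 2874 and 3518 in the 1wk Dox samples, and 1725 to 2519 after withdrawal. The T cell marker sum was 1064 to 1924 at No Dox, 2888 and 3163 in the 1wk Dox samples, and 2700 to 4931 after withdrawal, with the first group below the others. The monocyte marker sum was 21499 to 29297, then 19969 and 21172, and after withdrawal 17964 to 26317, and none of the 6 monocyte markers was called at 1wk Dox. Leaving out No Dox replicate 2, the sample with the highest acinar sum, gave an adjusted p of 0.0116 for Flt3 and 0.013 for Irf4. The part of the other markers in these differences was not tested.

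After withdrawal of Dox, 1wk WD was compared with No Dox. No member was called, where 0.626% of all genes were, and at an unadjusted p under 0.05 with a 2-fold change no member passed either, against 4.97% of genes. Flt3 had the largest difference among the members, -0.48 (SE 0.14, adjusted p = 0.0971), and was the only member whose groups did not overlap, where 4.27% of genes were lower without overlap. For the other 6 members the differences ran from -0.24 for Irf4 to 0.24 for Batf3, and the median of all 7 was -0.13. Cd209a was at 0.15 (SE 0.22), and at 0.42 without 1wk WD replicate 1 (adjusted p = 0.141) and 0.03 without replicate 4. That replicate 1 had the lowest Cd209a score and an acinar marker sum of 181255, against 1293 to 2271 in the other 3 samples, and whether these are linked was not tested.

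Between 1wk Dox and 1wk WD, 0.0866% of genes and no member were called. Irf4, Clec9a, Zbtb46, and Flt3 were higher at 1wk WD by 0.62, 0.61, 0.53, and 0.49 on the log2 scale, with SEs of 0.17, 0.25, 0.25, and 0.17 and adjusted p of 0.239, 0.43, 0.518, and 0.345. These were the 4 members without overlap, all higher, against 13.4% of genes higher without overlap. A 2-fold change with an unadjusted p under 0.05 was reached by no member and 1.82% of genes. Clec9a ran from 0.18 without 1wk Dox replicate 4 to 1.05 without replicate 5. This comparison shares its 1wk Dox samples with the first.

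**Figure D2:**
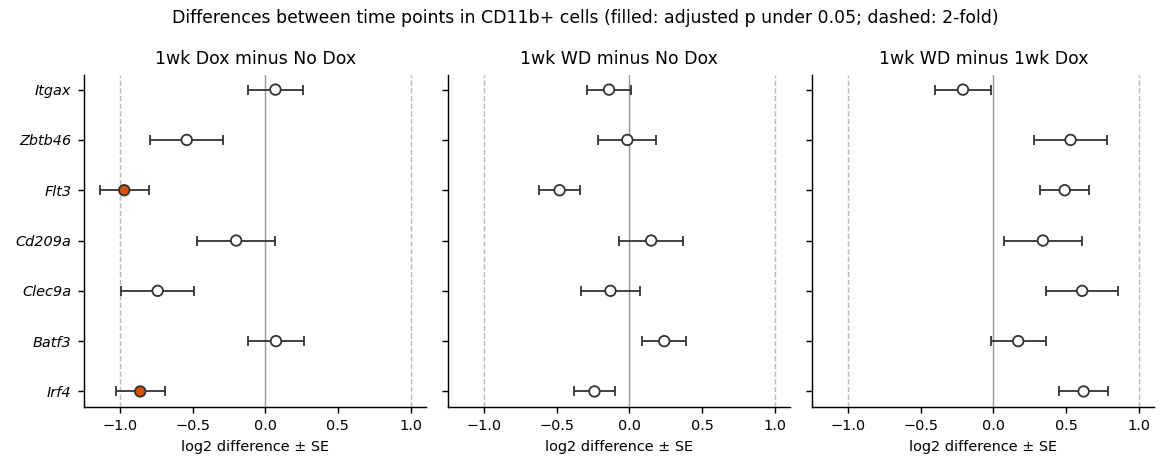
Log2 differences ± SE (x axes) of the 7 members in CD11b+ cells for 1wk Dox minus No Dox, 1wk WD minus No Dox, and 1wk WD minus 1wk Dox, where filled points have an adjusted p under 0.05 and dashed lines mark 2-fold. Flt3 at -0.97 and Irf4 at -0.86 are the only filled points, and neither reaches the dashed line.

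How the members varied together was described by Pearson correlations of log2(score + 1) over the 10 MΦ samples, which share 3 time points. Flt3 and Irf4 had the highest r of the pairs, 0.88. Clec9a had 0.78 with Irf4, 0.75 with Flt3, and 0.74 with Zbtb46, and Zbtb46 had 0.75 with Irf4. The r of Itgax with the others ran from -0.24 to 0.31. Among 15013 other genes, the 3 with the highest r to Flt3 were Peli2 (0.977), Srgap3 (0.964), and Mbp (0.962), and to Irf4 they were Zfp161 (0.971), Rragb (0.964), and Il1rl1 (0.963). For Zbtb46 they were Rab39 (0.963), Sdccag8 (0.962), and Chsy3 (0.95), and for Clec9a Lyrm4 (0.95), Il18r1 (0.943), and Tcf20 (0.931). Those of Itgax were Rusc1 (0.922), Ptgr2 (0.887), and Vash1 (0.884), those of Cd209a were Tmf1 (0.903), Cul1 (0.892), and Gm4070 (0.889), and those of Batf3 were Dst (0.912), Gm9961 (0.907), and Gm1332 (0.906). The highest of 15013 values of r over 10 samples can be high by chance. This was not tested, so the named genes are a description.

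Further DC genes in CD11b+ cells were read from lists. Of 13 genes of mature DCs, 3 were called higher at 1wk Dox and none lower, beside 1.61% of all genes called higher and 0.653% lower, 12 had higher means of log2(score + 1), Samsn1 among them with a difference of 0.00, and the median difference was 0.92. Ccr7, the chemokine receptor that guides mature DCs to lymph nodes, was at 3315, 1308, 1355, and 973 at No Dox, at 5487 and 5672 at 1wk Dox, and at 5097, 4123, 3023, and 3618 at 1wk WD. The 1wk Dox samples lay above all others, and the difference from No Dox was 1.85 (SE 0.37, adjusted p = 0.0187). Fscn1, an actin bundling protein of mature DCs that ECs also express, rose by 2.81 (SE 0.52, adjusted p = 0.0135), from 104 to 623 at No Dox to 1922 and 1563. Cacnb3, a calcium channel subunit, rose by 2.81 (SE 0.43, adjusted p = 0.00776), from 122 to 335 to 1315 and 1574. Cacnb3 was also higher at 1wk WD by 1.82 (SE 0.35, adjusted p = 0.0314), the single mature DC gene called there beside 0.42% of all genes, with 12 of 13 mean log2 scores higher and a median of 0.79. That call held in 8 of 18 other settings, and was lost when any single 1wk WD sample was left out (adjusted p = 0.0584 to 0.0921), as well as without No Dox replicate 4 (0.0514) or either 1wk Dox sample (0.0702 and 0.0552). In other sorted cells Fscn1 was at 1202 to 5865 in ECs, and Cacnb3 at 766 to 2407 in β cells, above every MΦ score at No Dox, and Ccr7 was at 1 to 48 in ECs. In β cells Ccr7 was at 25 to 490 at No Dox, at 395 to 1000 at 1wk Dox, and at 3596, 3062, and 1433 after withdrawal. The endothelial marker sum of ECs was 334479 to 511038, and the β cell marker sum of MΦs was 1958 to 45605 at No Dox and 8110 and 17657 at 1wk Dox. The part of such RNA in Fscn1, Cacnb3, and Ccr7 was not tested. Cd86 and Cd83, the costimulatory molecules with the highest scores of the list, differed by 0.11 (SE 0.23) and -0.12 (SE 0.23) at 1wk Dox. None of the 3 called genes passed without 1wk Dox replicate 4 or without replicate 5, with adjusted p of 0.244 to 0.344 and 0.0665 to 0.123. Of 18 other settings, Fscn1 and Ccr7 were called in 12 each and Cacnb3 in 13.

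Other DC lists had few calls. Of 12 conventional DC genes, Btla, an inhibitory receptor, fell by 1.12 at 1wk Dox (SE 0.26, adjusted p = 0.0314), 2 had higher mean log2 scores, and the median was -0.31. The genes with the highest scores there, Runx3 and Adam19, differed by -0.26 and 0.23. Btla was called in 9 of 18 other settings, and not without 1wk Dox replicate 4 or 5, where it differed by -0.92 and -1.32. At 1wk WD it was at 2315, 2545, 2615, and 3357, below the lowest No Dox score of 3408. It was not called there, and 4.27% of genes were lower without overlap in that comparison. Of 11 cDC1 genes tested, 1 was called higher, Snx22 by 1.26 (SE 0.24, adjusted p = 0.0169), and it fell by 1.87 from 1wk Dox to 1wk WD (SE 0.24, adjusted p = 0.0192). Without 1wk Dox replicate 4 or 5, the rise of Snx22 was 1.11 or 1.40 and its difference at 1wk WD from 1wk Dox -1.73 or -2.02, and neither was then called. The fall was also not called without 1wk WD replicate 2 (adjusted p = 0.0703) or 3 (0.108), or without a trend (0.114). Of 18 other settings, the rise was called in 14 and the fall in 12. Wdfy4, needed for cross-presentation, and Cadm1, an adhesion molecule, had the highest scores of that list and differed by -0.34 and -0.12. No cDC2 gene of 7 was called at any time, and Notch2 and Rbpj, of the Notch pathway, differed by -0.25 and -0.77 at 1wk Dox. Rbpj had an adjusted p of 0.0249 and was under 2-fold. In the same list Sirpa, an inhibitory receptor of myeloid cells, was higher by 0.73 at 1wk Dox (SE 0.15, adjusted p = 0.0208) and by 0.60 at 1wk WD (SE 0.12, adjusted p = 0.0409), also under 2-fold.

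Siglech, a lectin of plasmacytoid DCs and some tissue MΦs, was at 2891, 2339, 3174, and 3248 at No Dox, at 1010 and 1091 at 1wk Dox, and at 2387, 1393, 1379, and 1526 at 1wk WD. It fell by 1.46 at 1wk Dox (SE 0.22, adjusted p = 0.00789), with an adjusted p of 0.264 without 1wk Dox replicate 4 and 0.0539 without replicate 5. Bst2, an interferon-induced gene in the same list, rose by 1.30 (SE 0.24, adjusted p = 0.014), and without the same samples its adjusted p was 0.398 and 0.0539. It was called in 12 of 18 other settings and Siglech in 14. Tcf4, the transcription factor of plasmacytoid DCs, differed by -0.54 (SE 0.19, adjusted p = 0.116). Klk1, which has the highest score of that list, was at 371 to 116386 at No Dox, highest in the sample with the highest acinar sum, and differed by -6.52 at 1wk Dox (SE 2.08, adjusted p = 0.0934). Of 7 genes of this list tested, 1 was called in each direction, and the other 5 in neither.

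Other genes that act with the members were read next. Flt3l, the ligand of Flt3, was at 47 to 308 at No Dox and at 132 and 147 at 1wk Dox (difference 0.14, SE 0.57). Batf, which can stand in for Batf3, differed by -0.14 (SE 0.22), and Irf8, the partner of Batf3 in cDC1s, by 0.31 (SE 0.15, adjusted p = 0.259). Itgb2, the β2 chain that pairs with both CD11b and CD11c, differed by 0.13 (SE 0.15). Of 9 growth factor and receptor genes tested, none was called, with Csf2ra at 0.15 and Stat3 at -0.28, and of 10 DC transcription factors none was, with Jund at -0.12 and Zeb2 at -0.07. Among 8 other interferon regulatory factors Irf7 alone was called, higher by 1.39 (SE 0.23, adjusted p = 0.0101), with an adjusted p of 0.329 without 1wk Dox replicate 4 and 0.0517 without replicate 5. Irf1 was at 0.22 and Irf2 at 0.05. None of 6 other Cd209 genes was called, Cd209c differing by -0.42 and Cd209b by -0.14, and none of 6 neighbours of Clec9a, with Clec7a at -0.24 and Clec12a at -0.27. At 1wk WD against No Dox none of these lists held a called gene.

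**Figure D3:**
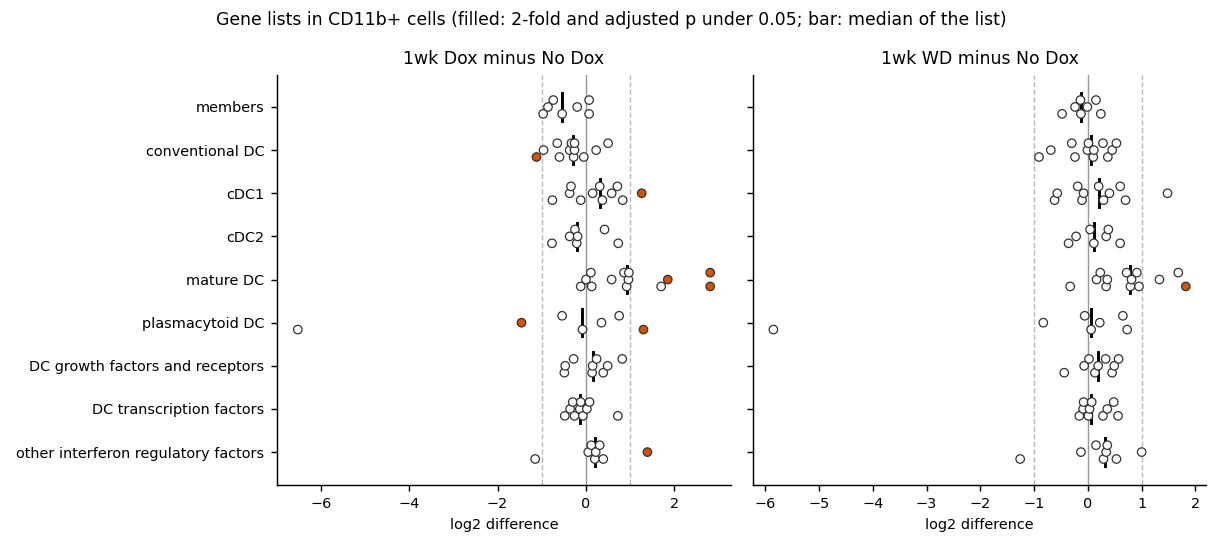
Log2 differences (x axes) of the genes of 9 lists in CD11b+ cells for 1wk Dox minus No Dox and 1wk WD minus No Dox, 1 point per gene tested, filled where called, with a bar at the median of each list. The mature DC list has medians of 0.92 and 0.79, and the member list of -0.54 and -0.13.

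Across the sorted populations, 5 members stood out in MΦs and 2 did not. Against ECs at No Dox, 5 members were called higher in MΦs, beside 17.6% of the 16380 genes tested, and 1 lower, beside 15.9%. At 1wk WD 5 were called higher, beside 20.8% of genes, and 2 lower, beside 19.6%. Itgax was at 1 to 13 in the 10 EC samples, Flt3 at 1 to 17, and Cd209a at 1 to 17, next to the lowest score, so no fold is given for them. These 3 lay below the filter on low scores in ECs and were tested because they passed it in other cells, so their 3 calls are a description. Irf4 was at 7 to 73 and Batf3 at 3 to 171 in ECs. Neither overlapped with MΦs. Batf3 was 4.57 higher in MΦs at No Dox (SE 1.36, adjusted p = 0.0167) and 5.70 higher at 1wk WD (SE 0.54, adjusted p = 9.48e-07). Without EC No Dox replicate 3 the first had an adjusted p of 0.0513.

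Zbtb46 and Clec9a were higher in ECs than in MΦs. Zbtb46 scored 13784, 11404, 12980, and 11383 in ECs at No Dox, 11580 in the single 1wk Dox sample, and 9375, 8644, 9095, 10399, and 9442 at 1wk WD, all above the MΦ range of 2580 to 5410. The MΦ minus EC difference was -1.66 at No Dox (SE 0.61, adjusted p = 0.0455) and -1.27 at 1wk WD (SE 0.40, adjusted p = 0.0156). The No Dox call was lost in 8 of 12 fits that left out 1 sample, each of the MΦ and EC samples in turn, at an adjusted p of up to 0.106. With ECs and MΦs alone in the fit, chosen after the data were seen, it was 7.07e-05. The order of cell types at No Dox was ECs, MΦs, and β cells, and no neighbours overlapped. Within ECs the log2 difference of Zbtb46 at 1wk WD from No Dox was -0.40 (SE 0.09, adjusted p = 0.0375), under 2-fold. With 1 EC sample left out the adjusted p was 0.0295 to 0.119, and above 0.05 in 8 of 9 such fits. Its EC groups did not overlap, where 4.91% of 14167 genes were lower without overlap, and 1.62% were lower at an adjusted p under 0.05 alone.

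Clec9a scored 5099, 4512, 4365, and 4831 in ECs at No Dox, 3920 in the 1wk Dox sample, and 5227, 4502, 7075, 7807, and 5759 after withdrawal, with no overlap with MΦs. The MΦ minus EC difference was -2.10 at No Dox (SE 1.24, adjusted p = 0.201), and with only these cell types in the fit the SE was 0.14 and the adjusted p 9.62e-07. At 1wk WD it was -2.57 (SE 0.38, adjusted p = 6.9e-05). Clec1a, the gene that contains Clec9a, was at 14327 to 20150 in ECs and at 548 to 1302 in MΦs. The ratio of Clec9a to Clec1a was 0.226 to 0.472 in ECs and 0.883 to 1.91 in MΦs. Clec1b, which shares exon bases with Clec9a, was at 923 to 1916 in ECs and at 20 to 107 in MΦs. The part of reads from either gene in the Clec9a score was not tested. In ECs, 3 members did not pass the filter on low scores and 4 were tested over time. None of the 4 was called, where 1.76% of genes were, or 2-fold different at an unadjusted p under 0.05, where 4.79% were.

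**Figure D4:**
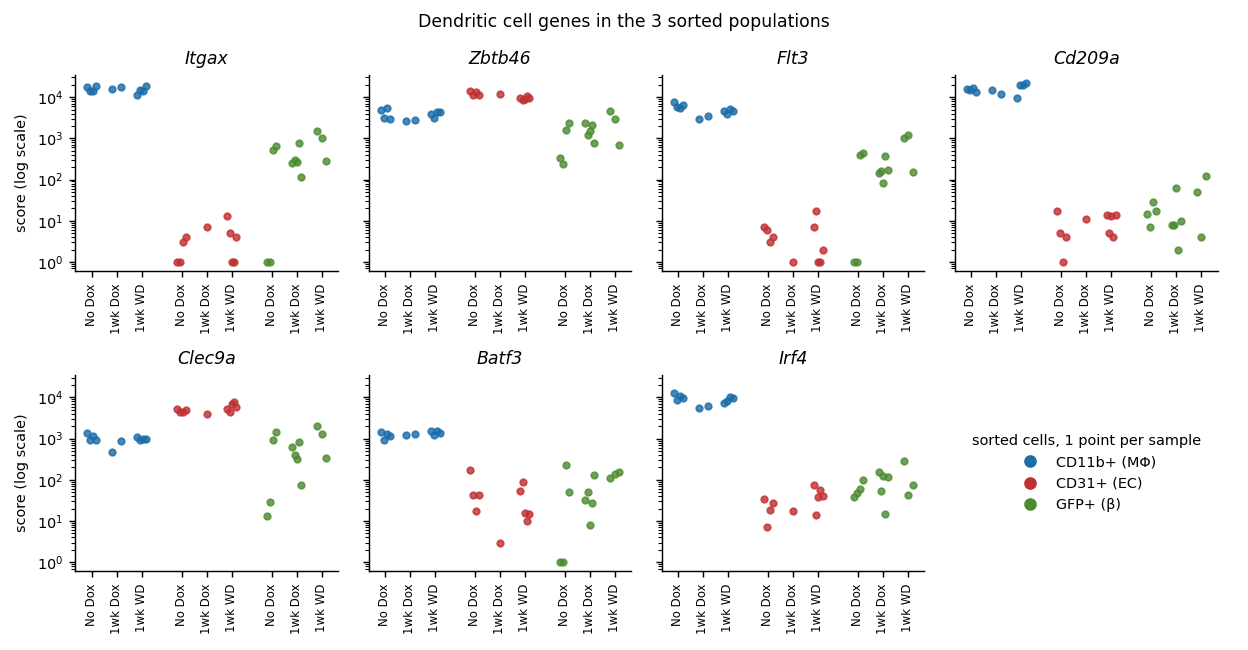
Scores of the 7 members (y axes, log scale) in CD11b+ MΦs, CD31+ ECs, and GFP+ β cells at the 3 times, 1 point per sample. Zbtb46 and Clec9a are highest in ECs, at 8644 to 13784 and 3920 to 7807, and the other members are highest in MΦs.

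In β cells the members depended on the library. At No Dox, Itgax was at 1, 1, 526, and 664 and Flt3 at 1, 1, 394, and 433. At 1wk Dox, Itgax was at 254, 295, 270, 753, and 116 and Flt3 at 142, 164, 84, 379, and 166. After withdrawal they were at 1536, 1048, and 290 and at 1043, 1227, and 153. Only No Dox replicates 1 and 2 had both genes at the lowest score. Clec9a was at 13, 29, 953, and 1465 at No Dox, at 616, 392, 327, 822, and 76 at 1wk Dox, and at 2065, 1262, and 348 at 1wk WD. Cd209a stayed between 2 and 121 in all 12 β cell samples, and Irf4 between 15 and 282. Batf3 was at 1 to 230, and Zbtb46 at 242 to 4534.

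Compared with β cells, 6 members were called higher in MΦs at No Dox, beside 19.7% of genes, and 5 at 1wk WD, beside 19.2%. Of the 6, Cd209a passed the filter on low scores at No Dox through MΦs alone, so its call there is a description. Clec9a was called at neither time, with differences of 2.82 (SE 1.24, adjusted p = 0.0726) and 0.05 (SE 0.44, adjusted p = 0.932), and its groups overlapped at both times. At No Dox it passed the call without β cell replicate 3 (3.69, adjusted p = 0.0245) or replicate 4 (3.9, adjusted p = 0.00926). At 1wk WD, without β cell replicate 3, the difference of Clec9a was -0.69, lower in MΦs, with an adjusted p of 0.0213. Zbtb46 was 2.39 higher in MΦs at No Dox (SE 0.61, adjusted p = 0.00587) and 0.90 higher at 1wk WD (SE 0.45, adjusted p = 0.105). The latter ran from 0.091 without β cell replicate 3 to 1.47 without replicate 1, where it passed the call (adjusted p = 0.00848). Itgax, at 4.21 (SE 0.68, adjusted p = 0.000139), Batf3, at 3.36 (SE 0.62, adjusted p = 0.000416), and Flt3, at 2.95 (SE 0.82, adjusted p = 0.00757), were higher in MΦs at 1wk WD without overlap.

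The members present in β cell libraries did not keep the proportions of MΦs. The ratio of Itgax to Cd209a was 0.709 to 1.5 in the 10 MΦ samples, and in β cells from 0.0667 to 39.1 at No Dox, 4.43 to 376 during Dox, and 2.4 to 262 after it. The β cell ratios divide by Cd209a scores of 2 to 121, and 376 and 262 by scores of 2 and 4, so they are imprecise. Xcr1, the chemokine receptor of cDC1s, was at 19 to 236 in MΦs and at 6 to 20 in ECs. In β cells it was at 48, 5, 769, and 1049 at No Dox, at 270, 180, 292, 682, and 149 at 1wk Dox, and at 1791, 1548, and 216 at 1wk WD. The log2 difference of MΦs from β cells for Xcr1 was -2.66 at 1wk WD (SE 0.69, adjusted p = 0.00472), called lower, and -1.38 at No Dox (SE 1.42, adjusted p = 0.433). The ratio of Xcr1 to Itgam was 0.000418 to 0.0111 in MΦs and 0.1 to 52.7 in β cells, which were sorted as CD11b-. Stromal, acinar, and T cell markers also varied between these libraries. The stromal marker sum was 329 and 157 in No Dox replicates 1 and 2, where Itgax and Flt3 were at 1, against 67598 and 195392 in replicates 3 and 4. The acinar marker sum was 636403 and 28181 against 10960672 and 8319168, the latter 21.9% and 19.1% of all scores, and the β cell marker sum was 8666215 and 5538211 against 1654351 and 628011. The part of these in the scores was not tested.

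Over time in β cells no member was called in any of the 3 comparisons, where 2 of 16346 genes were called at 1wk Dox against No Dox (0.0122%) and 0 in the other comparisons by limma. At a 2-fold change with an unadjusted p under 0.05, 4.04% of genes passed when 1wk Dox was set against No Dox, 4.45% when 1wk WD was, and 2.88% between the later times. Of the members 0, 2, and 0 did. These 2 were Itgax (4.50, SE 1.95, adjusted p = 0.601) and Flt3 (4.34, SE 1.86, adjusted p = 0.601), whose groups overlapped.

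**Figure D5:**
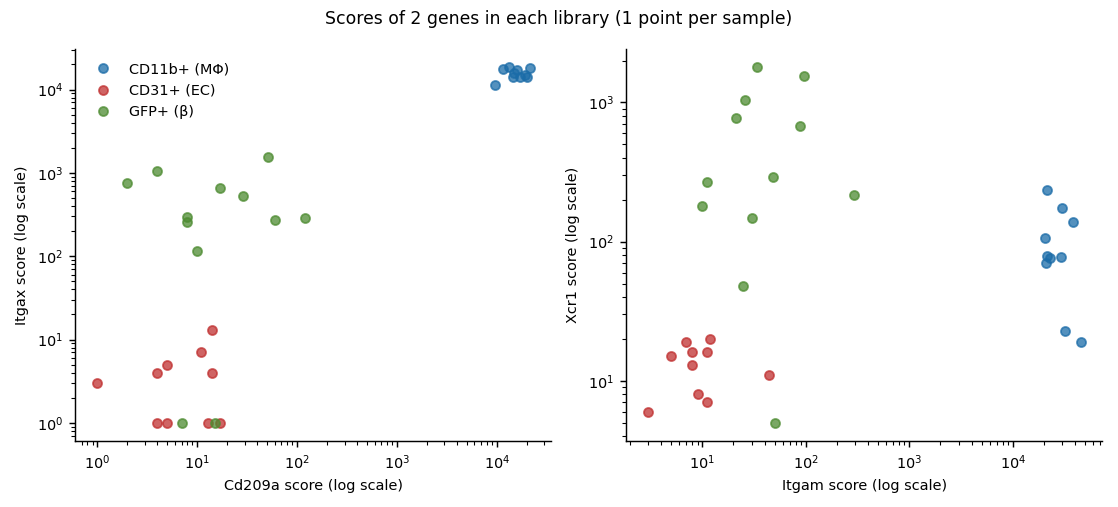
Score of Itgax against Cd209a and of Xcr1 against Itgam (all axes log scale), 1 point per sample, coloured by sorted population. In MΦs Itgax and Cd209a are both at 9562 or more, while in β cells Itgax reaches 1536 with Cd209a at no more than 121, and Xcr1 reaches 1791 with Itgam at no more than 294.

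Whether a member responded differently in MΦs than in another cell type was tested directly. For 1wk Dox against No Dox, MΦs minus β cells, the 7 differences ran from -3.50 for Flt3 (SE 2.07) to 0.36 for Cd209a (SE 1.26), with adjusted p of 0.93 to 0.986. In β cells Cd209a was at 7 to 29 at No Dox and at 2 to 61 at 1wk Dox, so low scores limit what its response there can show. No gene of 16821 passed the call in this test, and 3.32% had a 2-fold difference with an unadjusted p under 0.05, none of them a member. For 1wk WD against No Dox, MΦs minus ECs, they ran from -1.24 for Irf4 (SE 0.60) to 1.13 for Batf3 (SE 0.85), with adjusted p of 0.227 to 0.955. No member passed the call in that test, where 1.4% of genes did, or a 2-fold difference at an unadjusted p under 0.05, where 9.04% did. The difference of Flt3 in that test was -0.10 (SE 0.74), and Flt3, Itgax, and Cd209a, 3 of the 7 members, were next to the lowest score in ECs, where a response could not be measured.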

How the data were processed

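Sorted β cells, ECs, and MΦs of 32 samples were analysed. The authors amplified the RNA (NuGEN Ovation), sequenced it as 50 bp paired-end reads on an Illumina HiSeq, aligned the reads to mm9 with TopHat (TopHat2 version 2.0 in the submitters' processing notes), and scaled gene values by TMM with Avadis NGS. What they deposited are these scores, as whole numbers from 1 up. They cannot be turned back into reads, so depth is unknown. The annotation version and the strand setting of the counting are not given in the sources used here. The table has 38 sample columns, and 6 were not used because they belong to no sample analysed here.

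Members and gene lists were chosen with earlier results of these data known. Groups came from the sample labels. With limma 3.58.1 (R 4.3.3), log2(score + 1) was fitted with empirical Bayes moderation and a trend, keeping genes whose mean score reached 20 in any group fitted. MΦ and β cell fits took all 3 times, the EC fit No Dox and 1wk WD, and comparisons of cell types all 3 types at 1 time. A call needed at least 2-fold and an adjusted p under 0.05 (Benjamini-Hochberg, over all genes tested). Log2 differences are on the log2(score + 1) scale, which understates those of low genes. The text names all members, in other lists each gene called in MΦs and the 2 with the highest mean score in MΦs at No Dox, the partners Itgam, Itgb2, Irf8, Batf, Flt3l, Xcr1, and Siglech, and the 3 genes most like each member. Clec1a, Clec1b, Sirpa, Samsn1, and the called markers were named after their values were seen. Within each cell type, No Dox and 1wk WD samples with the same replicate number did not deviate together (correlations of -0.512 to 0.21). They were not paired. Between cell types sharing by number was not tested, and the fits treat those samples as independent. At No Dox the acinar marker sum was highest in replicate 2 in MΦs (10152030) and ECs (1485864), but in replicate 3 in β cells (10960672). At 1wk WD it was highest in replicate 1 in all 3 cell types (181255, 53396, and 521430). Settings also tried were a pseudocount of 0.1 or 20, a filter at a mean of 200 or none, scaling by the median of ratios, no trend, only the groups compared, a replicate block, leaving out each sample, and, added later, an adjusted p at any fold change and only the compared cell types. Python 3.11.15 with pandas 2.3.3 and matplotlib 3.10.9 made the other steps and figures.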

Additional observations from a re-analysis of the deposited data

Results flagged for a closer look

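Among 42 groups of 4 or more samples of the 7 members, 4 held a sample set far apart from the rest of its group by Dixon's test, and chance sets about 1 in 20 groups apart. In β cells at 1wk Dox, replicate 4 had an Itgax score of 753 and a Flt3 score of 379, against 116 to 295 and 84 to 166 in the other 4 samples. The T cell marker sum of this sample was 14921, against 177 to 1031 in the others, and whether the 2 are linked was not tested. Replicate 3 of the same group had a Cd209a score of 61, against 2 to 10. In ECs at No Dox, replicate 1 had a Batf3 score of 171, against 18 to 43. No sample of the MΦ groups was set apart for any member, and groups of 3 or fewer, 1wk Dox MΦs included, were not tested.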

How the results depend on the processing

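In all, 2145 values under other settings were set against 101 results, and 2102 stayed close. A difference did so by keeping its direction and its side of the call, and a count of members by staying within 1.5 times. A member not called in the main fit thus stayed close at any adjusted p, if still uncalled in the same direction. Flt3 and Irf4 at 1wk Dox with the replicate block were counted in this way. The number of members called in MΦs at 1wk Dox against No Dox was 0, and 2 with an adjusted p under 0.05 at any fold change, and 0 to 1 when 1 sample was left out. In ECs at 1wk WD it was 0, and 1 at any fold change. Leaving out 1 sample gave 4 to 6 calls in MΦs against ECs at No Dox, 6 to 7 against β cells at No Dox, and 5 to 6 against β cells at 1wk WD. Under the other settings no count of members moved by over 1.5 times. Under no trend, only the 2 groups compared, and the replicate block, the adjusted p at 1wk Dox was 0.0565, 0.063, and 0.208 for Flt3 and 0.0789, 0.0785, and 0.275 for Irf4, and without a filter it was 0.0415 and 0.0662. For Zbtb46 in MΦs against ECs at No Dox it was 0.0926 without a filter and 0.0605 without a trend.

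A sign changed 21 times, 16 of them with 1 sample left out, and the cause was not tested. With the replicate block, which pairs samples by replicate number, Itgax was at -0.29 for 1wk Dox against No Dox and 0.14 for 1wk WD against 1wk Dox in MΦs, and Clec9a at -0.014 for MΦs against β cells at 1wk WD. The difference in response was -0.083 for Cd209a with a pseudocount of 20 and 0.14 for Flt3 with a pseudocount of 0.1. With 1 sample left out, the ranges in MΦs were -0.0068 to 0.15 for Itgax and -0.035 to 0.16 for Batf3 at 1wk Dox against No Dox, and -0.16 to 0.14 for Zbtb46 at 1wk WD against No Dox. In β cells they were -0.0015 to 2.24 for Clec9a at 1wk Dox, -0.008 to 2.30 for Cd209a and -0.0024 to 1.32 for Irf4 at 1wk WD against No Dox, and -0.075 to 1.30 for Zbtb46 and -0.31 to 1.02 for Irf4 at 1wk WD against 1wk Dox. For MΦs against β cells at 1wk WD Clec9a ran from -0.69 to 0.60, and differences in response ran from -0.12 to 0.98 for Cd209a and from -0.39 to 0.41 for Flt3.

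Counts over all genes moved more. At 1wk Dox against No Dox in MΦs, 340 genes were called, 118 without a filter, 52 without a trend, 38 with only the 2 groups, 3 with the block, 688 at any fold change, and 0 to 487 without 1 sample. At 1wk WD against No Dox, 94 were called, and 11, 11, 49, 43, 184, and 23 to 123 in the same order. For 1wk WD against 1wk Dox it was 13, and 8 with a pseudocount of 20, 79 with only the 2 groups, 0 without a trend or with the block, and 0 to 24 without 1 sample. In ECs it was 250, and 27 without a filter, 76 without a trend, 553 at any fold change, and 75 to 311 without 1 sample. In β cells all these counts were 0 to 26. For the difference in response against β cells the count was 0, and 8 with a pseudocount of 20, and it was not 0 in every fit without 1 sample. Against ECs it was 219, with 100 without a filter and 92 to 362 without 1 sample. Unknown depth limits what low scores, such as those of ECs, can show.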
